A study of Mus musculus with 4 samples.

Results

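The Myc family genes Myc, Mycn, Mycl, Max, Mxd1 and Mxi1 were followed in 1 library of open chromatin from the dental mesenchyme of the mouse incisor. Their regions were those whose midpoint lay nearest to a transcription start site (TSS) of one of the 6 genes among all protein-coding genes, together with any region overlapping 1 kb either side of such a start. That gave 181 of the 121574 open regions (0.149%), holding 3712 of 2297894 reads (0.162%), and all 19 regions at the promoters were also nearest to their own gene. Open DNA was read out by ATAC-seq, which uses a transposase to insert sequencing adapters where chromatin is accessible. The mice were wild-type C57BL/6 animals aged 4 weeks, untreated and kept free of pathogens. All 4 deposited samples formed 1 group and differed by sequencing lane alone, with 1 shared column of values, and the number of animals behind them was not stated. There was therefore no contrast and no replicate error, and all values are descriptions. The genes were chosen by name and their regions by position, with the read counts of this library known, so that no count is evidence for the choice.

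Proteins of the Myc family bind DNA as heterodimers with Max, mostly at the E-box CACGTG. The activators Myc, Mycn and Mycl drive growth, ribosome production and cell division, whereas Mxd1 and Mxi1 pair with Max at the same sites and recruit corepressors. Myc lies in a stretch almost free of other protein-coding genes that holds the long noncoding gene Pvt1 and enhancers acting over long distances, among them enhancers active in the embryonic face, while Mycn is known for its activity in embryonic progenitors.

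The promoters came first, since every member had at least 1 start in open chromatin. The bases upstream of the starts that lay inside the main promoter regions are shown for the 5 members with an entry in the RefSeq promoters (GRCm38.p6), 5′ to 3′ on the strand of the gene, ending before the first annotated transcribed base. Capitals mark exact matches on either strand. The motifs searched were TTTGGCGC, which E2F factors of the cell cycle bind, and GGGCGG, which Sp and Klf factors bind. The E-boxes searched were CACGTG, the site preferred by Myc and Max, CAGGTG, preferred by Snail and E proteins among other factors, and CAGCTG, preferred by many tissue-specific helix-loop-helix factors. The TATA box was searched as TATAAA. Overlapping matches were all counted.
Mycn, chr12:12941915-12942086, minus strand: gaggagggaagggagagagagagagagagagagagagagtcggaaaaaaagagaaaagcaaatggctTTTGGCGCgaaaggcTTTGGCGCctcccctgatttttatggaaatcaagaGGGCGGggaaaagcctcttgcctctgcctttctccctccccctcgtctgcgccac
Mycl, chr4:122995681-122995930, plus strand: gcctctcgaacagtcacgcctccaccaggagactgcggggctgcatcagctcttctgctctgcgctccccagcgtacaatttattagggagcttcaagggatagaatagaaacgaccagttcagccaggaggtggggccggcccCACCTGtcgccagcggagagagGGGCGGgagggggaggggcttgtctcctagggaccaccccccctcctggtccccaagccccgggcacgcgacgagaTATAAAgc
Max, chr12:76962249-76962498, minus strand: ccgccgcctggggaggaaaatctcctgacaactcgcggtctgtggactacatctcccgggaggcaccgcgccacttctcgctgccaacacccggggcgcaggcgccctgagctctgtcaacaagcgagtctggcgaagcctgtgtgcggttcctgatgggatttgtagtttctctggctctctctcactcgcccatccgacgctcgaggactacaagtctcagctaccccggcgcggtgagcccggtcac
Mxd1, chr6:86669162-86669409, minus strand: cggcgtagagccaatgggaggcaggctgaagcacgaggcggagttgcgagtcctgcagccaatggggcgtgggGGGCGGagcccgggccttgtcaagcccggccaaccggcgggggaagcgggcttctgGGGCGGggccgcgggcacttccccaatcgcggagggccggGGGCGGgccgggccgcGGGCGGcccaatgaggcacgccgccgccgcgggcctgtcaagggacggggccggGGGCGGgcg
Mxi1, distal start, chr19:53310256-53310505, plus strand: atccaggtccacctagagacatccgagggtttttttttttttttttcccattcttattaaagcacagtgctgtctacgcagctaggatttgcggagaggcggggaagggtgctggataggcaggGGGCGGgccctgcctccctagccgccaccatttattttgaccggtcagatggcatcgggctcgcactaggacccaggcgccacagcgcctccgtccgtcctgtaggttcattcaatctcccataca
Mxi1, proximal start, chr19:53329163-53329412, plus strand: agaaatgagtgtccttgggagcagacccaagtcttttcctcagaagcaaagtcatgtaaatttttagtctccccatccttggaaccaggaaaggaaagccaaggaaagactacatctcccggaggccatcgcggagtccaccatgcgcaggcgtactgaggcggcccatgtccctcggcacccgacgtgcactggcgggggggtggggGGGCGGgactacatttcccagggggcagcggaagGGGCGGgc

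A pair of E2F matches stood in the Mycn promoter, starting 183 and 168 bases before the RefSeq start. Such a match occurred in 0.635% of the 21262 RefSeq promoters of protein-coding genes, each taken from 250 bases before to 50 after its start. The Max promoter held CACGTG, the letters its own product binds, across the RefSeq start from 3 bases before it, so that the printed bases end inside the match. Of all promoters, 7.84% held CACGTG. Mycl held the only TATAAA, starting 8 bases before its start (12.6% of promoters), and the only CAGGTG (19.7%), which lies on the other strand and so reads as its reverse complement above. The E-box CAGCTG was in 0 of the 7 promoters of these 5 genes and in 15.6% of all. GGGCGG was in 6 of the 7 and in 46.2% of all promoters. Mxd1 held 6 copies, of which 5 are in capitals in full. The Mxd1 promoter was also rich in G and C (76.7%, above 96.5% of promoters). A match describes letters only and does not show that a factor was bound.

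All 6 genes had an open promoter region, which 64.6% of the 21827 protein-coding genes had, and all 6 had at least 1 region nearest to them, as 77.0% of the genes did. Read counts below are followed by an exact 95% Poisson interval, which covers counting error only. Not given in the sources used here are whether a count is a read or a fragment and whether duplicates were removed. In a bulk library, more cells with a region open and a region more open in each cell cannot be told apart.

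Summed per gene, promoter reads of the family varied far less than reads away from promoters. The promoter sums over all annotated starts ran from 145 to 342, a 2.36-fold range. With the 5′-most start of each gene alone they ran from 40 at Mxi1 to 240 at Mxd1. The regions elsewhere ran from 10 to 1106 reads a gene, a 111-fold range. Those sums cover unequal lengths of sequence nearest to each gene, from 27.8 kb at Mycl to 1445 kb at Myc. Per 100 kb of that sequence, reads elsewhere ran only from 35.5 at Mxd1 to 203 at Mycn. Myc and Mycn together held 152 of the 181 regions and 71.0% of the reads. Small regions made up much of the set, since 102 of the 181 had under 10 reads and the median region of the library had 7.

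**Figure D1:**
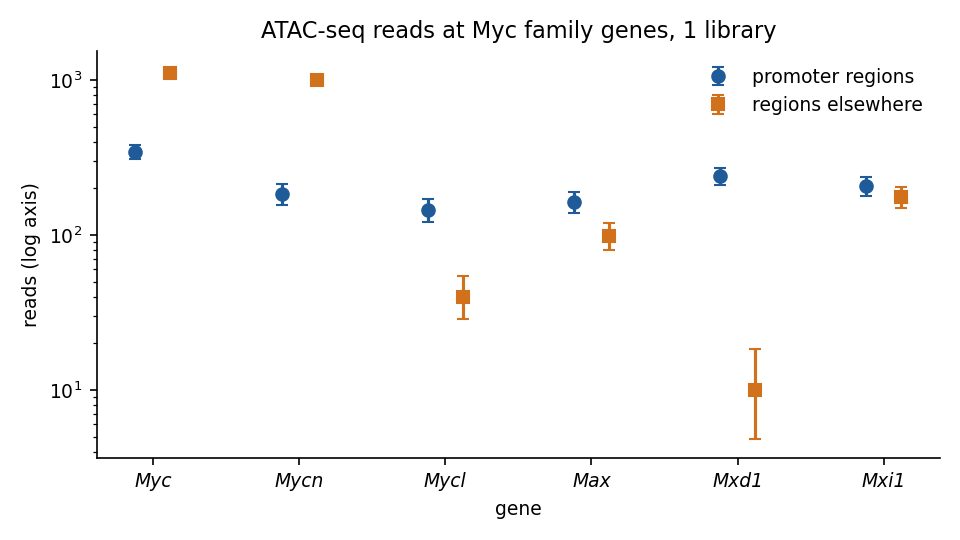
Reads (log axis) at the promoter (circles) and in all other regions (squares) of each of the 6 genes in the 1 library, with exact 95% Poisson intervals. Promoter sums lie between 145 and 342, while the other regions range from 10 at Mxd1 to 1106 at Myc.

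Myc, the broadest activator of the family, is encoded on the plus strand at chr15:61985391-61990374 (mm10; gene ENSMUSG00000022346). Its 4 promoter regions held 342 reads (307 to 380), more than 97.4% of the 14102 protein-coding genes with a promoter region, whose median was 67.0 (quartiles 30 and 126). The main one, chr15:61985070-61985812, had 211 reads (183 to 241) and overlapped exon 1. A separate region in an intron, chr15:61986805-61987257, had 105 reads (85.9 to 127) and lay in front of a later annotated start. The others had 24 reads at chr15:61984300-61984533 and 2 at chr15:61984831-61985069. Of the 5 annotated Myc starts, 3 lay inside an open region. Just outside the promoter window, 1.91 kb upstream, chr15:61983389-61983576 had 43 reads (31.1 to 57.9) in only 188 bp, or 229 reads per kb.

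Mycn, the family member best known from neural and other embryonic progenitors, lies on the minus strand at chr12:12936093-12941914 (ENSMUSG00000037169). Its promoter sum was 183 reads (157 to 212), above 86.9% of the genes with a promoter region. It was divided between a region over the start, chr12:12941751-12942083, with 94 reads, and chr12:12942323-12942836, 665 bp upstream, with 79. Those regions were joined by a stretch of 6 reads (chr12:12942084-12942322), and 4 reads lay on the gene side (chr12:12941587-12941750). The E2F matches printed above fall in the region of 94 reads.

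Mycl, the third activator, lies on the plus strand at chr4:122995944-123002485 (ENSMUSG00000028654) and had 145 promoter reads (122 to 171), above 79.7% of those genes. Of these, 115 were in chr4:122995422-122996582, which covered both starts, and 30 in the region that abuts it downstream (chr4:122996583-122997337). Its 3 other regions had 23, 14 and 3 reads, 40 in all (28.6 to 54.5). Mycl thus had 78.4% of its reads at the promoter, where Myc had 23.6% and Mycn 15.4%. These shares cover unequal lengths of sequence nearest to each gene, 27.8 kb for Mycl, 1445 kb for Myc and 494 kb for Mycn. Per 100 kb of it, Mycl had 144 reads elsewhere, Myc 76.6 and Mycn 203.

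Max, the partner that all the others need to bind DNA, lies on the minus strand at chr12:76937269-76962201 (ENSMUSG00000059436). Its promoter had 162 reads (138 to 189), above 83.2% of them, with 149 in chr12:76962153-76962714 and 13 in chr12:76961813-76962152. All 3 of its starts were in open regions. The 8 regions elsewhere held 98 reads (79.6 to 119), none above 23. The largest of them, chr12:77060139-77060545 (23 reads) and chr12:77020118-77020431 (21 reads), lay 98.1 and 58.1 kb upstream. The next, chr12:77052850-77053070, had 13 reads, and 4 of the 8 fell in the noncoding gene Gm35041.

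Mxd1, an antagonist that rises as cells leave the cycle in many tissues, lies on the minus strand at chr6:86647042-86669161 (ENSMUSG00000001156). It was the most promoter-centred gene of the family: 238 of its 250 reads were in the single region chr6:86669029-86669668, which was larger than 99.3% of all regions. The adjoining chr6:86669669-86669793 had 2 reads. Only 10 reads (4.80 to 18.4) lay elsewhere, 9 and 1 in a pair of intronic regions.

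Mxi1, also called Mxd2 and likewise a Max-binding antagonist, lies on the plus strand at chr19:53310518-53375810 (ENSMUSG00000025025). It was open at starts that lie in separate groups, the first start of the second group being 18.9 kb from that of the first. The distal group, with 2 starts, held 55 reads (41.4 to 71.6) and the proximal group, with 6 starts, held 151 (128 to 177). The intervals did not overlap, so more reads lay within 1 kb of the proximal starts than counting error allows. The difference depends on that window. With 2500 bp the promoter reads of Mxi1 were 299 instead of 206, which takes in a region of 93 reads behind the distal starts. The 2 groups were not compared at that window. The largest proximal region was chr19:53329233-53329691 with 107 reads, followed by chr19:53330218-53330394 with 27 and chr19:53329692-53330217 with 17. At the distal group chr19:53310343-53310672 had 40 reads and chr19:53313105-53313457 had 15.

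More reads than at the distal Mxi1 starts were found in the intron behind them, where chr19:53314116-53314461 had 93 reads (75.1 to 114), 1222 bp from the nearest start. Upstream of the gene, chr19:53279777-53280190 had 45 and chr19:53277099-53277460 had 25. The regions away from the promoters summed to 175 reads (150 to 203). A protein-coding gene model inside Mxi1, Gm10197, takes regions of the later introns under the nearest-start rule.

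By promoter reads the order was Myc (342), Mxd1 (240), Mxi1 (206), Mycn (183), Max (162) and Mycl (145). Over all starts Myc stood above Mxd1 beyond counting error. With the 5′-most start alone Myc had 237 reads, no longer above the 240 of Mxd1. From Mxd1 down, the interval of each gene overlapped that of the gene above it, so those neighbours were not separable at this depth. By reads elsewhere the order was Myc (1106; 1042 to 1173), Mycn (1005; 944 to 1069), Mxi1, Max, Mycl and Mxd1. The Myc and Mycn intervals overlapped, and every later neighbour was separate. Per 100 kb of the sequence nearest to each gene, that order changed to Mycn (203), Mxi1 (178), Mycl (144), Myc (76.6), Max (48.9) and Mxd1 (35.5).

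Summed over all its regions Myc had 1448 reads (1374 to 1525), more than 99.9% of the 16816 protein-coding genes with a region, and Mycn had 1188 (1121 to 1258), more than 99.8%. The median of those genes was 85.0. These sums cover the whole sequence for which no other coding start is nearer, a span of 1445 kb for Myc and 494 kb for Mycn against a median of 56.5 kb. Divided by that length, Myc stood above only 43.0% of those genes and Mycn above 70.5%. The short-span genes moved the other way, with Mxd1 (28.2 kb) above 94.2% and Mycl (27.8 kb) above 91.1%. Mxi1 stood above 82.2% and Max above 50.7%.

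The rule's outer limits fell in weak regions for Myc. The last region inside on the lower side had 6 reads and the first outside had 5, and on the upper side both had 3. For Mycn the values were 40 inside and 25 outside on the lower side, and 17 and 18 on the upper side. For the other 4 genes the outermost regions inside had 1 to 27 reads and those just outside 0 to 22.

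The gap around Myc runs from A1bg to Gsdmc, its protein-coding neighbours, and over its 2850 kb 157 regions held 1789 reads. The downstream side was the more accessible. Upstream, 1064 kb held 47 regions with 414 reads (375 to 456), or 389 reads per Mb. Downstream, 1786 kb held 110 regions with 1375 reads (1303 to 1450), or 770 per Mb, which was 76.9% of the reads of both sides. Outside promoters the genome had on average 417 reads and 35.6 regions per Mb. Counted in the same way the upstream side, with 365 reads per Mb, was a little below the genome's level and the downstream side, with 770, was above it.

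Among the 280 gaps of at least 1 Mb between protein-coding genes, the downstream side of Myc had more reads per Mb than 93.6% and the upstream side more than 79.3%. The median long gap had 130 reads per Mb (quartiles 40.9 and 338). A single large region can carry a gap, and with the largest region of each gap left out the 2 sides of Myc stood above 97.5% and 84.3%. By reads outside promoters they stood above 96.4% and 82.9%. Both settings were chosen after seeing the data.

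**Figure D2:**
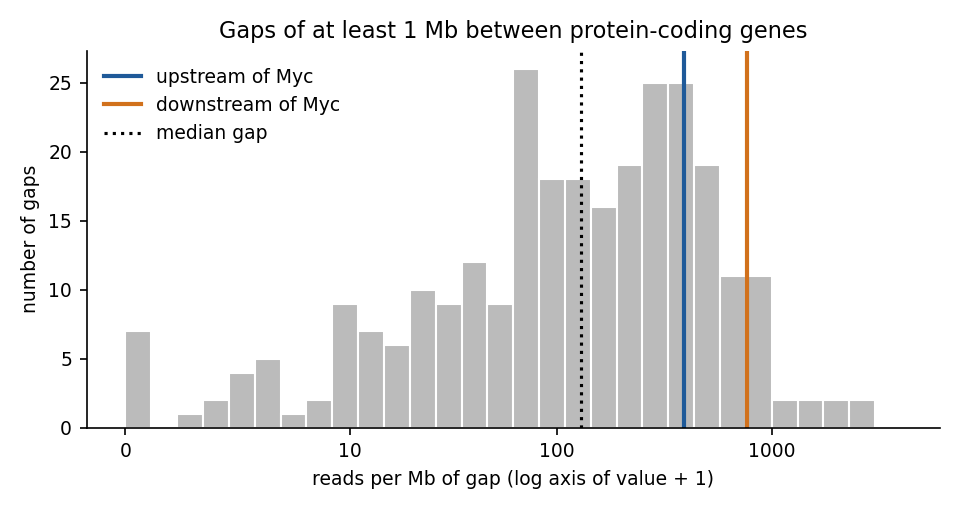
Number of gaps of at least 1 Mb between protein-coding genes (bars, 280 gaps) by reads per Mb of gap (log axis of the value plus 1), with lines at the gaps upstream (389) and downstream (770) of Myc and at the median gap (130). The downstream gap lies in the upper tail. The upstream gap lies lower but still above the upper quartile of 338.

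Reads along the Myc gap varied from step to step. In steps of 100 kb from the 5′-most Myc start, the first 100 kb held 441 reads, promoter included. The next steps held 233, 114 and 45, and the step from 400 to 500 kb rose again to 261. The step from 700 to 800 kb had 3. Upstream, the step nearest to Myc had 97 reads, 71 of them outside the Myc promoter. The step 600 to 700 kb away had 1 and that 800 to 900 kb away had 116. No step was without a region, and 18 of the 155 regions of the gap outside promoters held 50% or more of their reads.

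**Figure D3:**
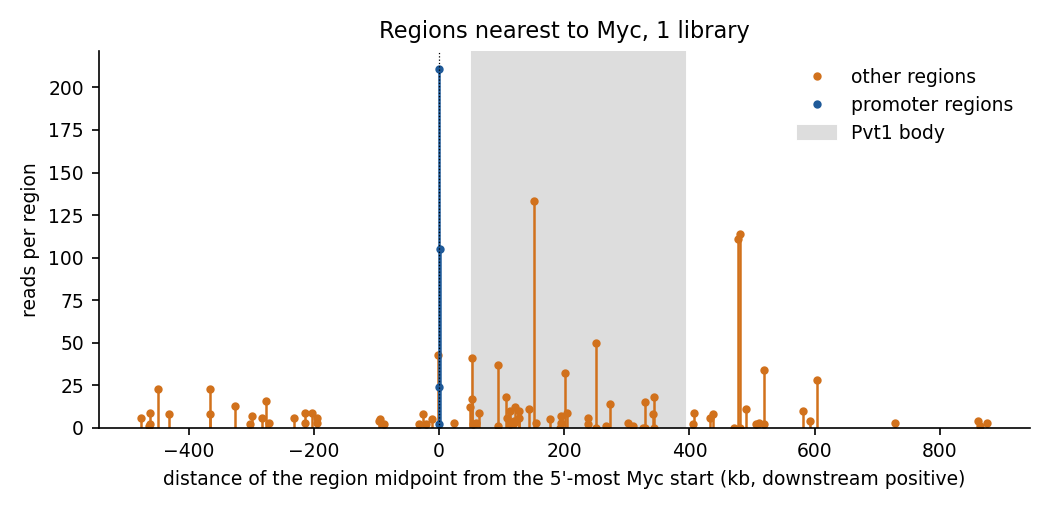
Reads of each region nearest to Myc by the distance of its midpoint from the 5′-most Myc start (kb, downstream positive), with promoter regions in blue, other regions in orange and the Pvt1 body shaded. Away from the promoter, 1 region of 133 reads inside Pvt1 and a pair of 111 and 114 reads beyond it stand above the others.

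The largest region of the gap, chr15:62136946-62137663, had 133 reads (111 to 158) and lay in an intron of Pvt1, 152 kb from Myc. The next were chr15:62465335-62465738 with 114 reads (94.0 to 137) and chr15:62462582-62463186 with 111 (91.3 to 134). That pair lay 480 and 477 kb from Myc, with 2.15 kb between its regions, and began 84.5 kb past the end of Pvt1. Those 3 regions held 358 reads, 32.4% of all Myc reads away from the promoter. Each was larger than 99.5% or more of the 97141 regions of the library outside promoters. Their size was close to the intronic promoter region of Myc itself (105 reads).

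Stretches of 300 bases of those 3 regions are given here, since they carry the most reads at a distance from Myc, together with those of the largest such region nearest to Mycn. They were read from GRCm38, plus strand, at the centre of each region, except that the first was moved to hold the CACGTG of its region. Capitals mark matches on either strand. The motifs searched were the E-box CACGTG, the AP-1 motif written TGANTCA, the Runx motif written TGTGGT, and that of Tcf and Lef factors written CTTTGAT. Also searched were the Tead motif written GGAATG, the homeobox core motif written TAATTA, and the Ctcf consensus.
Myc, chr15:62136946-62137245, plus strand: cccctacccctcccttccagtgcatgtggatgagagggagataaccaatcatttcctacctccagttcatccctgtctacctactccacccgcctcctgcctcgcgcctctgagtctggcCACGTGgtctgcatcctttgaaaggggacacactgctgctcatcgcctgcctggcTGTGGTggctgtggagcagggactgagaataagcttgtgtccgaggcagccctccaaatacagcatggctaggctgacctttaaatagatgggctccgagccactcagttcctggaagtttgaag
Myc, chr15:62462735-62463034, plus strand: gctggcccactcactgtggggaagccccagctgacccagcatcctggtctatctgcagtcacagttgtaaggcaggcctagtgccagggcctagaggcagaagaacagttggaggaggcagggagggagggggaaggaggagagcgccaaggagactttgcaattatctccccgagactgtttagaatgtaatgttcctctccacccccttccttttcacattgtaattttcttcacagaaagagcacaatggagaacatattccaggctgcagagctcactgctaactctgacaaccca
Myc, chr15:62465387-62465686, plus strand: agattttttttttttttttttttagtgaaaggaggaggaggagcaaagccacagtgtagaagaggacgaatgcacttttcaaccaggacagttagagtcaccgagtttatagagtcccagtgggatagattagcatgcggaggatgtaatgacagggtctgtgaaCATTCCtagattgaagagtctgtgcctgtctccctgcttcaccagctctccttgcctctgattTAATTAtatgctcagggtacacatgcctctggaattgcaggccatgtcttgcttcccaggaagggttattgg
Mycn, chr12:12627412-12627711, plus strand: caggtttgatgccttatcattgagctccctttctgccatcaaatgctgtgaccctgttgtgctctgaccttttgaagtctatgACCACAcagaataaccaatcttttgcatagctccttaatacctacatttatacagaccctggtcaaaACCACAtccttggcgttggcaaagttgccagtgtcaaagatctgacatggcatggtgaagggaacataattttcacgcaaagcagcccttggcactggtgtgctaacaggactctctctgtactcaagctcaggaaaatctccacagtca

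The largest distant Myc region, at 152 kb in Pvt1, held the E-box CACGTG once and the Runx motif once over its whole length, both within the bases shown. The region at 477 kb held 0 of the 7 motifs over its whole length. The region at 480 kb held 1 homeobox match and 2 Tead matches, of which 1 is shown. The Mycn region held 5 Runx matches, of which 2 are shown, written ACCACA on this strand.

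Of the other regions of the Myc gap, the largest was chr15:63400143-63400839 with 71 reads, 1415 kb downstream and nearer to Gsdmc. It was followed by chr15:62236174-62236661 in Pvt1 with 50 and by the 43 reads just upstream of Myc described above. The tenth-ranked region, chr15:62504011-62504349, still had 34 reads. On the upstream side the one region among the 10 largest beyond the Myc promoter's surroundings was chr15:61157473-61157851, with 38 reads 828 kb from Myc and nearest to A1bg. The 10 largest together had 672 of 1763 reads (38.1%).

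Pvt1, a noncoding gene on the plus strand at chr15:62038047-62378096, starts 52.7 kb downstream of the Myc start. In the Pvt1 body 38 regions held 461 reads (420 to 505), or 1356 reads per Mb (1235 to 1485). The 1398 kb beyond Pvt1 held 858 reads, or 614 per Mb (573 to 656). The 47.7 kb between Myc and Pvt1 held 56 reads in 3 regions, or 1175 per Mb (887 to 1525). The Pvt1 body was thus denser than the sequence beyond it, and its interval overlapped that of the short stretch before it. Of the 56 reads in that stretch, 41 lay in chr15:62037751-62038237, which overlaps the Pvt1 start and is counted at its promoter below. The other regions of the stretch had 12 and 3 reads, so most of its reads came from the Pvt1 promoter. All 38 regions in the body were intronic, 25 had under 10 reads, and the largest held 28.9% of the body's reads. After it came regions of 50, 37 (chr15:62079364-62079894) and 32 reads (chr15:62186466-62186859), then a tie of 18 reads at chr15:62092752-62093022 and chr15:62328336-62328827. The Pvt1 promoter had 58 reads (44.0 to 75.0) in 2 regions, of which chr15:62037751-62038237 had 41. The interval held the median of 67.0 for coding promoters. Since every region of the body is nearest to Myc among coding genes, the body supplied 31.8% of the reads assigned to Myc.

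Around Mycn the gaps were shorter and denser. The downstream gap, 555 kb to Fam49a, held 66 regions with 1252 reads (1184 to 1323), or 2255 per Mb. The upstream gap, 275 kb to Ddx1, held 30 regions with 552 reads (507 to 600), or 2007 per Mb. Among the 1280 gaps of at least 250 kb, a comparison also added after seeing the data, these stood above 98.9% and 98.2%. The gaps downstream and upstream of Myc stood above 83.0% and 61.5% in it. Of the reads upstream of Mycn, 373 lay outside promoters, or 1356 per Mb. By reads outside promoters the Mycn gaps stood above 99.5% (downstream) and 97.0% (upstream), and those of Myc above 87.3% and 65.6%. No step near Mycn was without reads, with 36 to 343 in each step of 100 kb, the Mycn promoter left out. The lowest was the step just upstream of the gene, which had 215 with the promoter. Of 96 regions outside the promoter 12 held 50% or more of the reads, and the 10 largest held 46.1%. Around Myc the 10 largest held 38.1%, but of a larger number of regions, 155. The largest single region had 120 of 1667 reads around Mycn and 133 of 1763 around Myc.

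**Figure D4:**
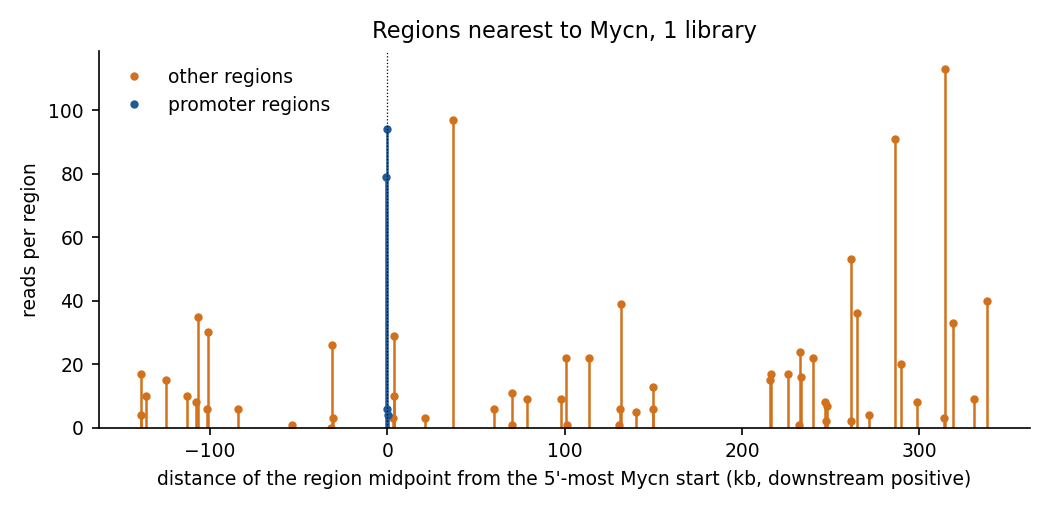
Reads of each region nearest to Mycn by the distance of its midpoint from the 5′-most Mycn start (kb, downstream positive), with promoter regions in blue and other regions in orange. Regions of 97, 91 and 113 reads downstream stand beside the largest promoter region, which has 94.

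The largest regions of the Mycn gaps were chr12:12485209-12486029 with 120 reads, nearest to Fam49a, and chr12:12627209-12627914 with 113 (93.1 to 136), 314 kb downstream of Mycn. A region of 97 reads, chr12:12904243-12904937, lay 37.3 kb downstream in the noncoding gene 4930519A11Rik, and one of 91, chr12:12655252-12655902, lay 286 kb away. The Mycn regions outside the promoter had a median of 10 reads, those of Myc 6.00, the same as the 6.00 of all regions outside promoters. Mycn had 19 regions with at least 20 reads among 59, and Myc 15 among 93.

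Sequence in the 162 member regions away from promoters was compared with that of the 97141 such regions of the library in windows of 300 bases. The AP-1 motif TGANTCA was in 27 (16.7%; exact 95% binomial interval 11.3 to 23.3) and in 11% of all. By gene it was in 18 of 89 Myc regions and 5 of 55 Mycn regions. The Tcf and Lef motif CTTTGAT was in 13 (8.02%; 4.34 to 13.3), against 4.54% of all. The Ctcf consensus was in 5 (3.09%; 1.01 to 7.06), against 6.92%, and the interval of the members reached that value. The AP-1 interval lay just above the value of all regions, and that of Tcf and Lef held it. AP-1 was 1 of 7 motifs searched, and the intervals make no allowance for that. Among the 35 member regions with at least 20 reads it was in 6 (17.1%; 6.56 to 33.6). That interval held the 9.68% of all such regions. Abutting regions share bases in these windows, which the intervals do not take into account.

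Runx (21% against 25.3%), Tead (22.2% against 19.6%), homeobox (13.0% against 13.9%) and CACGTG (4.94% against 4.26%) had intervals that held the library's shares. Within these windows CACGTG was in 6 Myc regions, to which the one in Pvt1 shown above adds outside its window, and in none of the 55 of Mycn. Median GC content was 48.3% in both sets. In windows of 500 bases AP-1 was in 25.3% of member regions and 16.8% of all.

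The rest of the Max network covered a wider range than the 6 genes. All 7 other genes had a promoter region, with a median of 80.0 promoter reads against 194 for the 6. Mnt, a Max-binding repressor found in most tissues, had 320 promoter reads and 677 in all, and its interval (286 to 357) overlapped that of Myc. The antagonist Mxd4 had 227 and 273. Mlxip, which pairs with Mlx in glucose sensing, had 130 and 223, and Mga, a large Max-binding repressor, had 80 and 156. At the low end Mxd3 had 39 promoter reads, Mlx 20 and Mlxipl, the liver glucose sensor, 11. The genes at the top of the ordering thus included activators and antagonists.

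**Figure D5:**
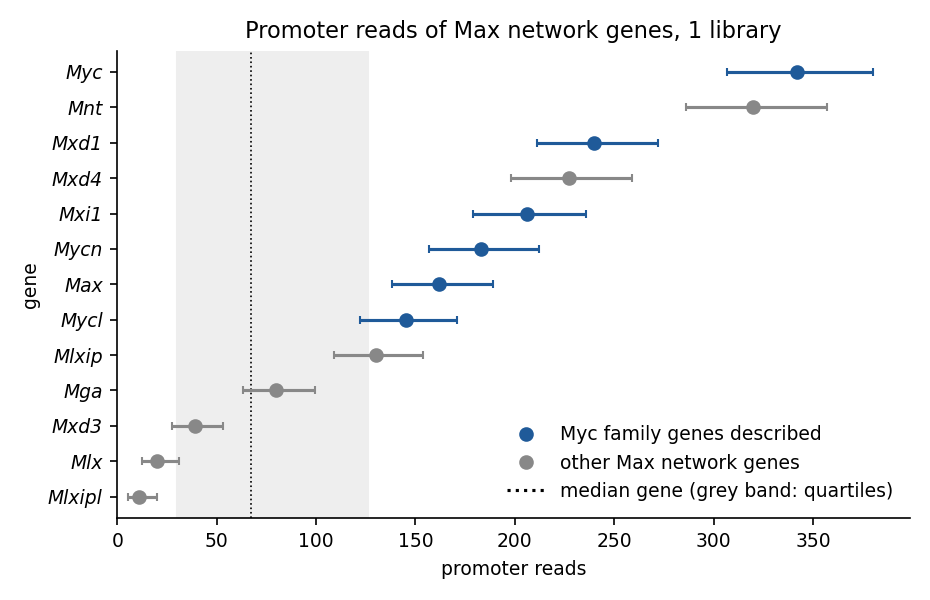
Promoter reads of the 6 Myc family genes (blue) and the 7 other Max network genes (grey) in the 1 library, with exact 95% Poisson intervals, the median gene with a promoter region (dotted, 67.0) and its quartiles (grey band). All 6 lie above the upper quartile of 126, with Mnt between Myc and Mxd1 and Mlx and Mlxipl at the bottom.

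Other genes that act with Myc also had open promoters, as 64.6% of all protein-coding genes did. All 10 cofactors had a promoter region, with a median of 80.5 promoter reads against 67.0 over all genes with a promoter region. Over all regions of a gene the median was 118, against 85.0 over all genes with a region. Sin3a, the corepressor scaffold of the Mxd proteins, had 557 and Ep400, a chromatin remodeller, had 332, while the acetyltransferase Kat2a had 17. Of 7 genes of Myc protein turnover all had a promoter region, with a median of 197 promoter reads. Over all regions of a gene the median was 237, or 245 over the 6 with a region nearest to them. The median span was 104 kb for turnover genes and 53.5 kb for cofactors, against 56.5 kb over genes with a region. The kinase Gsk3b had 871 reads, 762 of them at its promoter, and the ubiquitin ligase gene Fbxw7 had 337. Aurka had no region nearest to it, although 100 reads lay in a region at its promoter.

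All 18 textbook Myc targets had a promoter region, with a median of 176 reads a gene, or 207 over the 17 with a region nearest to them, and 11 of the 18 exceeded the median promoter. Odc1, the first enzyme of polyamine synthesis, had 537 and the nucleolar Npm1 had 320. Nop16 had no region nearest to it and 59 reads at its promoter. The 7 other E-box factors with a leucine zipper had a median of 178, led by Tfeb (342) and Usf2 (290), with Tfe3 lowest (86). Open chromatin at a gene does not measure its transcription, and none of these lists was tested against the other genes.

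The labelled tissue was checked against its markers. Of 8 dental mesenchyme markers 7 had an open promoter, all but Barx1, beside 64.6% of all protein-coding genes, with 770 promoter reads in sum. Of 4 odontoblast markers 3 did, all but Phex, with 54. Of 5 leukocyte markers, 0 did, although Ptprc had 591 reads in 46 regions away from its promoter. Of 4 markers each, 3 of endothelium (82 reads in sum, Pecam1 without) and 3 of dental epithelium (165, Amelx without) had an open promoter. Endothelial Cdh5 had 1019 reads away from its promoter, and Ambn held 112 of the 165 epithelial promoter reads. The sums come from lists of unequal size. The part of those cells in the Myc family values was not tested.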

How the data were processed

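ATAC-seq values of 1 library of incisor dental mesenchyme were used, shared by 4 lanes. Per the labels' protocols, BWA-MEM placed paired-end reads on mm10, MACS2 called the peaks and HOMER annotated them. STAR 2.6.1d and Partek stand, with no role, in the list of tools per the submitters' processing notes. The authors deposited values in CPM, with 1 read added to each region before scaling. Reads were recovered as the value divided by the smallest value of the column (0.0484 CPM), minus 1, and 84 of the values were not whole within 0.01 read (99.9% were). Duplicates left in would raise single regions. A value column without a sample (1) and a shorter deposited count table were not used. The number of reads sequenced was not stated. The value of 1 read implied a scaling total of 20662737, far above the reads in the regions, and what that total counts was not stated. The 121574 regions held 2297894 reads, and 7101 regions (5.84%) had 0.

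Regions were assigned by midpoint to the nearest TSS of 21827 protein-coding genes (GENCODE vM21 basic, GRCm38), and no filter on low values was applied. Promoter means 1 kb either side of a TSS. Intervals are exact Poisson or Clopper-Pearson at 95%. Motifs are exact matches on both strands. Python 3.11.15, pandas 2.3.3, scipy 1.17.1, numpy 2.4.6, samtools 1.23.1 and pysam 0.24.0 were used, and the assignment and intervals were tested on simulated data. The members and lists were chosen with earlier results of these data known. Named were the 6 genes, every other Max network gene, the 2 most and the 1 least accessible gene of each further list, the genes flanking the Myc gap, all promoter regions, the 3 largest other regions of each gene, the 10 largest of the Myc gap and the 5 largest of Pvt1. The genes and other regions flanking Mycn, Ptprc, Cdh5, Ambn, marker genes without an open promoter and gene models overlapping named regions were named after their values were seen. A further list of cell type markers is not reported here.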

Additional observations from a re-analysis of the deposited data

How the results depend on the processing

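The sums over all regions depended on how regions were given to genes, and the promoter sums less so. With the nearest TSS of any gene, noncoding genes included, the reads of the 6 genes fell from 3712 to 1472, those of Myc from 1448 to 345 and those of Mycn from 1188 to 225. Without regions under 10 reads they were 3284, 1196 and 1056, and within 100 kb of a TSS, whichever gene was nearest, 2829, 538 and 420. Within 100 kb Mycl had 416, Mxd1 421 and Mxi1 769. Promoter reads of the 6 were 1278, 1456 with 2500 bp and 1007 from the 5′-most TSS alone, where Myc had 237 (from 342), below Mxd1 at 240, and Mxi1 40 (from 206). The share of genes below Myc, 99.9%, was 55.7% per kb of region and 43.0% per kb of span, and that below Mycn, 99.8%, was 63.3% and 70.5%; the span setting was added after seeing the data. The Myc gap had 628 reads per Mb, 687 within 1 Mb on either side and 484 without regions under 10 reads. Its 157 regions were 132 with abutting ones merged and 50 with at least 10 reads. Pvt1 had 461 reads, or 377 without regions under 10. Promoter regions alone gave list medians of 80 (Max network), 80.5 (cofactors), 197 (turnover), 129 (targets) and 124 (E-box factors). Within 1 kb of the start, 2 of 7 promoters held CACGTG, 3 CAGCTG, 5 CAGGTG and 3 TATAAA. No paired analysis was possible because there is 1 group in 1 column; lanes could not be left out either. Counting error is the only error known.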
